A study of Mus musculus with 12 samples.

Results

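Fibroblast growth factor (FGF) ligands, their receptors and co-receptors, the adaptors that carry the signal and the feedback genes that restrain it were followed in whole mouse kidneys at postnatal day 3. The study places the normal end of nephron formation in mice just before this age. The set held every gene symbol made of Fgf and a number, the 4 numbered Fgfr genes, the Spred genes, and Fgfrl1, Spry2, Spry3, Spry4, Dusp6, Frs2, Frs3, Il17rd, Klb and Kl, chosen by name, though with earlier results of these data known. It came to 39 of the 24062 symbols counted. RNA was sequenced from 12 kidneys, 3 in each of 4 groups, and each group came from 2 litters, with 2 kidneys of the first litter and 1 of the second. The LIN28B OE mice (C57BL/6) carried a TRE-LIN28B transgene and a lox-STOP-lox-rtTA allele opened by Wt1-Cre, so that doxycycline in the drinking water induced human LIN28B in the lineage that has expressed Wt1, which takes in renal mesenchyme, cap mesenchyme, stroma and podocytes. Their controls were C57BL/6 littermates, called wild type by the labels. The alleles these controls carried, and whether they drank doxycycline, were not given. The let7 KO mice carried a constitutive deletion of let-7a1, let-7d and let-7f1 on a mixed CD1 and C57BL/6 background, and their controls (let7 WT) were littermates of the same mixed background. In its main experiments the study induced LIN28B with a single short pulse of doxycycline in late gestation, and the methods do not give the timing for the sequenced kidneys separately.

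Secreted FGFs bind receptor tyrosine kinases on neighbouring cells together with heparan sulfate, and the receptors pass the signal through FRS2 and GRB2 to RAS and the ERK kinases. The endocrine FGFs instead need a klotho protein as co-receptor, and the FGF-homologous factors stay inside the cell and act on ion channels. Sprouty and SPRED proteins, the ERK phosphatase DUSP6 and the transmembrane protein SEF (Il17rd) are switched on by the pathway and dampen it. In the developing kidney, FGF9 and FGF20 keep nephron progenitors alive, FGF8 is needed in the first nephron vesicles, FGF7 and FGF10 feed branching of the ureteric bud, and FGFR1 and FGFR2 receive these signals in mesenchyme and bud. Lin28 proteins block maturation of let-7 microRNAs, which lower mRNAs whose 3′ untranslated region (UTR) pairs with bases 2 to 8 of the microRNA, the seed.

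The 3 deleted microRNA genes lie together on chromosome 13 of the mouse genome (GRCm38.p6, minus strand), and their mature sequences from RefSeq are shown because their seed decides which FGF transcripts could pair with them. Capitals mark the seed, which 11 of the 12 let-7 entries of the table share.
let-7a, from Mirlet7a-1 at chr13:48538239-48538260: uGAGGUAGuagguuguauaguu
let-7d, from Mirlet7d at chr13:48536078-48536099: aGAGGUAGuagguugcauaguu
let-7f, from Mirlet7f-1 at chr13:48537889-48537910: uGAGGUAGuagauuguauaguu

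The libraries held 39926235 to 61872736 counted reads each, and 3 counts corresponded to between 0.0490 and 0.0825 CPM (counts divided by the library total and scaled to a common size, scaled by TMM factors over all 12 kidneys). The Lin28b row held 232, 224 and 71 counts in the LIN28B OE kidneys and 0, 18 and 33 in their controls, although it is a row for the mouse gene and the transgene is human. By qRT-PCR the study found mouse Lin28a and Lin28b mRNA unchanged in such kidneys whenever it measured them. The origin of the Lin28b reads was not tested. The Mirlet7d row was at 0 in the 3 let7 KO kidneys and at 0, 19 and 35 counts in let7 WT kidneys, so it checks 2 of those 3 labels. Defining nephron progenitor markers (Six2, Cited1, Eya1, Osr1, Meox1 and Crym) summed to 326 to 384 CPM in LIN28B OE kidneys against 65.8 to 83.1 CPM in controls, and the loop and distal tubule markers to 394 to 527 CPM against 832 to 1257 CPM. In let7 KO kidneys the same sums were 75.2 to 111 CPM against 50.4 to 52.3 CPM and 732 to 1285 CPM against 1257 to 1452 CPM. These kidneys are bulk samples, so fewer cells of a type and less RNA per cell cannot be told apart, and the part of these marker shifts in the results that follow was not tested. Of 4 fat markers (Adipoq, Plin1, Ucp1 and Cidea), the sum was 59.5 and 65.5 CPM in LIN28B controls 1 and 2 and at most 10.5 CPM in the other 10 kidneys. Fabp4, another fat marker that endothelium also expresses, did not follow them, at 411, 466 and 414 CPM in LIN28B controls 1 to 3 and highest in let7 KO 2 (617 CPM). Kidney identity was otherwise clear, with adrenal and skeletal muscle markers near 0.

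No FGF gene passed an adjusted p below 0.05 in either model by edgeR, and the smallest p was that of Kl, which was lower in LIN28B OE kidneys. In LIN28B OE kidneys 0 of 27 members tested passed by edgeR's quasi-likelihood test with Benjamini-Hochberg adjustment over all genes, against 1.23% of all genes tested, while DESeq2 called 1 (Kl), against 8.03% of all genes. At an unadjusted p below 0.01, the threshold the study used, 1 of the 27 passed (Kl, lower), against 7.33% of all genes. At an unadjusted p below 0.05 there were 3 (Kl lower, Fgf8 and Fgf18 higher), against 18.0% of all genes. In let7 KO kidneys 0 of 26 members passed the adjusted threshold (0.0194% of all genes did) and 0 passed at p below 0.01 (2.73% did), while 1 of 26, Spred2, passed at p below 0.05 (10.8% did). With litter as a block 4 members passed p below 0.05 in the LIN28B model (16.6% of all genes did) and 2 in the let7 model (9.53% did). At each of these p thresholds in the LIN28B model the members passed no more often than all genes tested. The median log2 fold change over the members tested was 0.09 in LIN28B OE kidneys, with 15 above and 12 below 0, and -0.21 in let7 KO kidneys, with 9 above and 17 below 0. Over all genes the median was -0.02 in both models. Groups did not overlap for 7 of 27 members in the LIN28B model (Fgf8, Fgf18 and Spred3 higher; Kl, Fgf9, Fgf13 and Il17rd lower), against 23.9% of all genes, and for 3 of 26 in the let7 model (Spred2, Dusp6 and Fgfr3, all lower), against 16.8%.

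**Figure D1:**
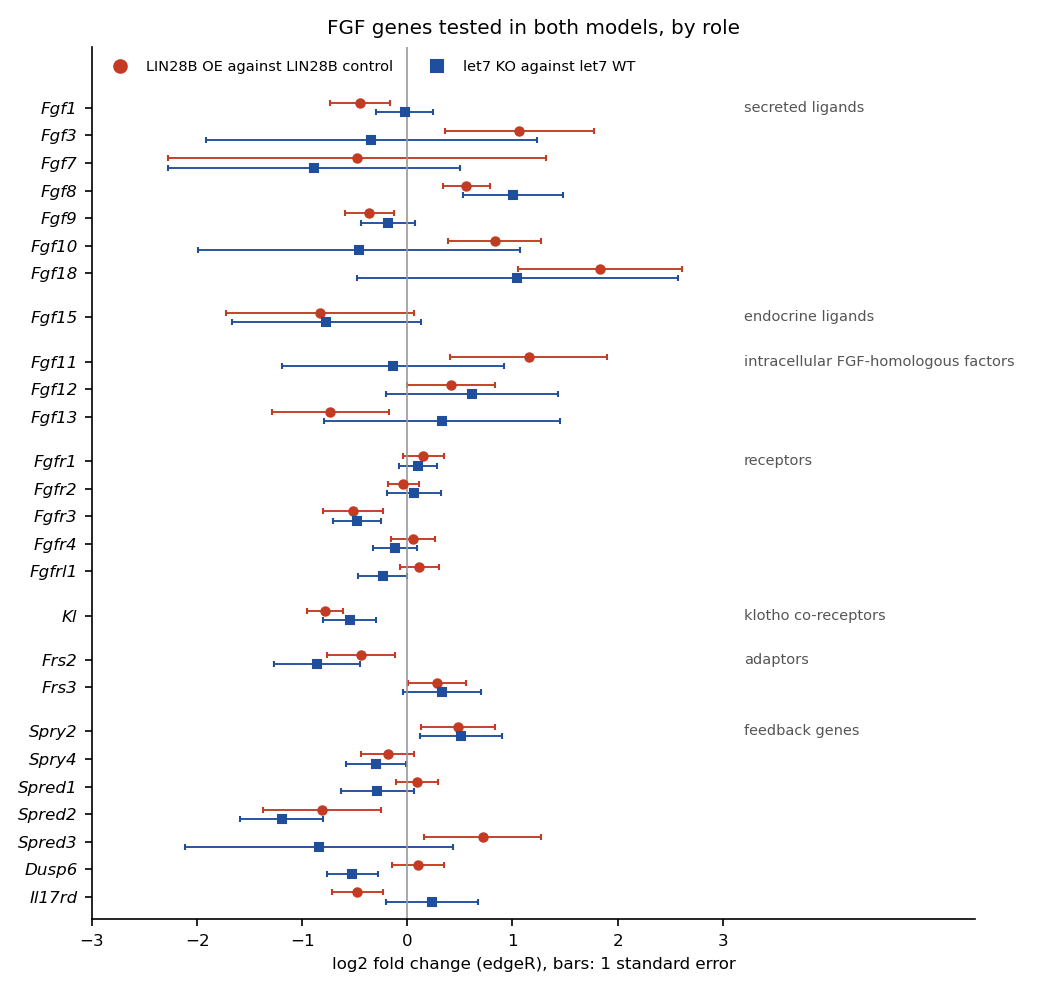
Log2 fold change with its standard error for the 26 members tested in both models, grouped by role, LIN28B OE against control beside let7 KO against let7 WT. Receptors lie between -0.51 and 0.15, Kl lies at -0.78 and -0.55, and the widest bars belong to ligands with few counts.

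Not all members could be read in this tissue. A count was found in all 12 kidneys for 22 of the 39, and Fgf6, Fgf23 and Spry3 were at 0 in every kidney. Another 9 (Fgf2, Fgf4, Fgf5, Fgf14, Fgf16, Fgf17, Fgf21, Fgf22 and Klb) stayed under the filter on low counts in both models, so that 12 members were tested in neither. The member with the lowest mean that was tested was Fgf7 at 0.537 CPM over the 12 kidneys, and the highest left out was Fgf4 at 0.356 CPM. Fgf2 and Fgf4 were tested only in the joint fit of 12 kidneys, and Fgf20 only there and in the LIN28B model. Of the 3 endocrine ligands only Fgf15, the mouse counterpart of human FGF19, was tested, and 25.7% of its exon bases overlap antisense genes, whose reads cannot be told apart from its own where strand was not used.

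To compare levels between genes, CPM was divided by the length of all exons of a gene in kilobases (GENCODE M21, GRCm38). On that scale the feedback phosphatase Dusp6 (chr10:99263231-99267489) stood highest in LIN28B control kidneys with a mean level of 25.8 CPM per kb, followed by Kl (20.3), whose range overlapped that of Dusp6 but not that of the next gene. Fgfrl1 (13.3), Fgfr2 (13), Fgfr1 (12.4), Spred1 (11.4) and Fgf8 (10.3) came next, and the ranges of neighbours in this stretch overlapped. Fgfr4 (7.57 CPM per kb) stood apart from both its neighbours, and Spry4, Fgfr3, Fgf1 and Fgf9 lay between 4.26 and 3.79 with overlapping ranges. Fgf8 was thus the ligand with the highest level in the LIN28B controls. In LIN28B OE kidneys Fgf8 was second of all members (15.2 CPM per kb) and Kl seventh (11.8), while in let7 WT kidneys Kl was second (24.5) and Fgf8 fourteenth (3.29). With the longest transcript as the length instead, Kl (32.5 CPM per kb) and Fgfr2 (30.2) stood above Dusp6 (28.9) in LIN28B controls and Fgfr1 followed (24.4), so the order at the top depends on which length is used.

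**Figure D2:**
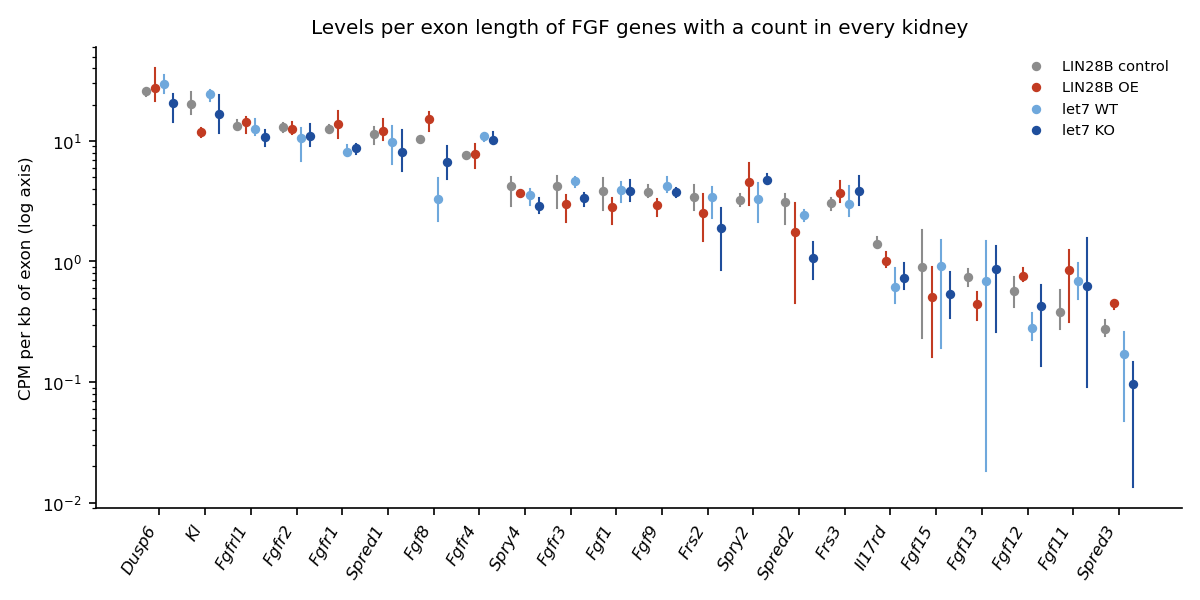
Mean CPM per kilobase of exon, with the range of 3 kidneys, on a log axis for the 22 members with a count in all 12 kidneys, in each of the 4 groups. In LIN28B controls Dusp6, Kl and the receptors Fgfrl1, Fgfr2 and Fgfr1 lie at the top, and the order differs in the other groups. Mean Fgf8 lies between 3.29 and 15.2 in the 4 groups.

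Among the secreted ligands, 8 of 15 were tested in the LIN28B model, 5 above and 3 below 0, with a median log2 fold change of 0.70. One of the 5, Fgf20, entered the test only through the LIN28B OE kidneys, and without it the median of the other 7 was 0.56. In the let7 model 7 of 15 were tested, 2 above and 5 below 0, with a median of -0.18. Fgf8 (chr19:45736798-45742915, minus strand), the signal of the early nephron vesicle, was measured at 13.6, 14.1 and 14.2 CPM in LIN28B controls and 21.8, 23.6 and 16.3 CPM in LIN28B OE kidneys. All 3 LIN28B OE kidneys lay above every control, and the third was the nearest to them. Its level was 14 ± 0.303 CPM (SD, n = 3) against 20.6 ± 3.80 CPM (SD, n = 3), a fitted difference of 1.48-fold (log2 0.56, SE 0.22, edgeR adjusted p = 0.219). In let7 WT kidneys Fgf8 was at 2.95, 3.71 and 6.66 CPM and in let7 KO kidneys at 6.55, 8.08 and 12.3 CPM. The groups overlapped, since the lowest let7 KO kidney lay just under the highest let7 WT kidney. Within each litter number, 2 against 2 kidneys and 1 against 1, every let7 KO kidney lay above every let7 WT kidney. In this model deviations from group means, taken over all genes tested, correlated at -0.03 within and 0.04 across litter numbers. Deviations cancel within a group, so these 2 averages are tied to each other. They do not show whether litter matters for Fgf8. The fitted difference was 2.01-fold (log2 1.01, SE 0.48, edgeR adjusted p = 0.478), and with litter as a block the log2 fold change was 1.04 (edgeR adjusted p = 0.517). The progenitor marker sums given above were higher in the mutant kidneys of both models, whereas the early nephron markers (Lhx1, Jag1, Pax8, Wnt4 and Lef1) summed to 424 to 457 CPM in LIN28B OE kidneys and 513 to 558 CPM in their controls, and to 403 to 449 CPM in let7 KO and 375 to 517 CPM in let7 WT kidneys. These markers did not move together. In the LIN28B model Wnt4 was higher (log2 0.23) and Lhx1 (-0.51), Jag1 (-0.59), Pax8 (-0.56) and Lef1 (-0.41) were lower. In the let7 model Wnt4 (0.56) and Lef1 (0.06) lay above 0, and Lhx1 (-0.34), Jag1 (-0.53) and Pax8 (-0.49) below.

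Fgf9 (chr14:58070547-58112720), a survival factor of nephron progenitors, was at 20.1, 16.9 and 15.9 CPM in LIN28B controls and 15.3, 14.7 and 11.1 CPM in LIN28B OE kidneys. The 3 LIN28B OE kidneys all lay below the controls, by a narrow margin at the nearest pair, and the difference was not past the test (log2 -0.36, SE 0.23, edgeR adjusted p = 0.466). In the let7 model Fgf9 was at 17.4, 18.4 and 23.2 CPM in let7 WT and 15.9, 17.4 and 18.8 CPM in let7 KO kidneys, and these ranges overlapped (log2 -0.18, SE 0.26, edgeR adjusted p = 0.839). Its partner Fgf20 (chr8:40279166-40308331, minus strand), with which Fgf9 acts redundantly on progenitors, had reads in only 5 of the 12 kidneys. Fgf20 had 0, 0 and 50 reads in LIN28B controls and 91, 18 and 247 reads in LIN28B OE kidneys, so the groups overlapped, with kidney 3 high in both. Fgf20 in the let7 model had reads in a single kidney, 2 in let7 KO 1, and 12% of its exon bases overlap Micu3 on the other strand.

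Fgf10 (chr13:118669791-118792115), the mesenchymal ligand of FGFR2 on the ureteric bud, was at 3.41, 5.04 and 2.37 CPM in LIN28B controls and 4.19, 7.71 and 7.34 CPM in LIN28B OE kidneys. One control kidney lay above the lowest LIN28B OE kidney (log2 0.83, SE 0.44, edgeR adjusted p = 0.368). Fgf10 reads in the let7 model spread from 9 to 228 in let7 WT kidneys and from 0 to 175 in let7 KO kidneys, wider within a group than between the groups. Fgf7, a second ligand of the same receptor form, had 59, 23 and 17 reads in LIN28B controls and 81, 0 and 0 in LIN28B OE kidneys. For let7 WT kidneys the Fgf7 reads were 35, 61 and 24, and in let7 KO kidneys 50, 2 and 10, so that in both models 1 mutant kidney was in or above the control range and the other 2 were below it. Fgf1, the ligand that binds all the receptors, was at 26.8, 14.7 and 22 CPM in LIN28B controls and 11.2, 16.6 and 18.4 CPM in LIN28B OE kidneys, with overlapping ranges (log2 -0.45, SE 0.29, edgeR adjusted p = 0.457). Fgf1 in let7 WT kidneys was at 17.1, 24.9 and 22.2 CPM and in let7 KO kidneys at 20.4, 17.3 and 25.7 CPM (log2 -0.02, SE 0.27, edgeR adjusted p = 0.985).

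Fgf18 and Fgf4 were singled out after their values were seen. Fgf18 (chr11:33117430-33147400, minus strand), a ligand best known from the skeleton and lung, had 40, 17 and 34 reads in LIN28B controls and 115, 81 and 164 reads in LIN28B OE kidneys. Every LIN28B OE kidney lay above every control (log2 1.83, SE 0.78, 3.56-fold, edgeR adjusted p = 0.254). Fgf18 in the let7 model had 0, 23 and 63 reads in let7 WT and 83, 63 and 20 reads in let7 KO kidneys, which overlapped. Fgf4, a ligand of the early embryo, had 0 reads in all 3 LIN28B controls and 4, 123 and 73 reads in LIN28B OE kidneys, at least 20.2-fold higher when the controls are set to 3 counts per library and at least 10.8-fold without LIN28B OE 2. The first LIN28B OE kidney held only about as many Fgf4 reads as that floor. Fgf4 reads in the let7 model appeared in a single kidney, 42 in let7 KO 1. Fgf3, Fgf4 and Fgf15 are neighbours on chromosome 7.

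**Figure D3:**
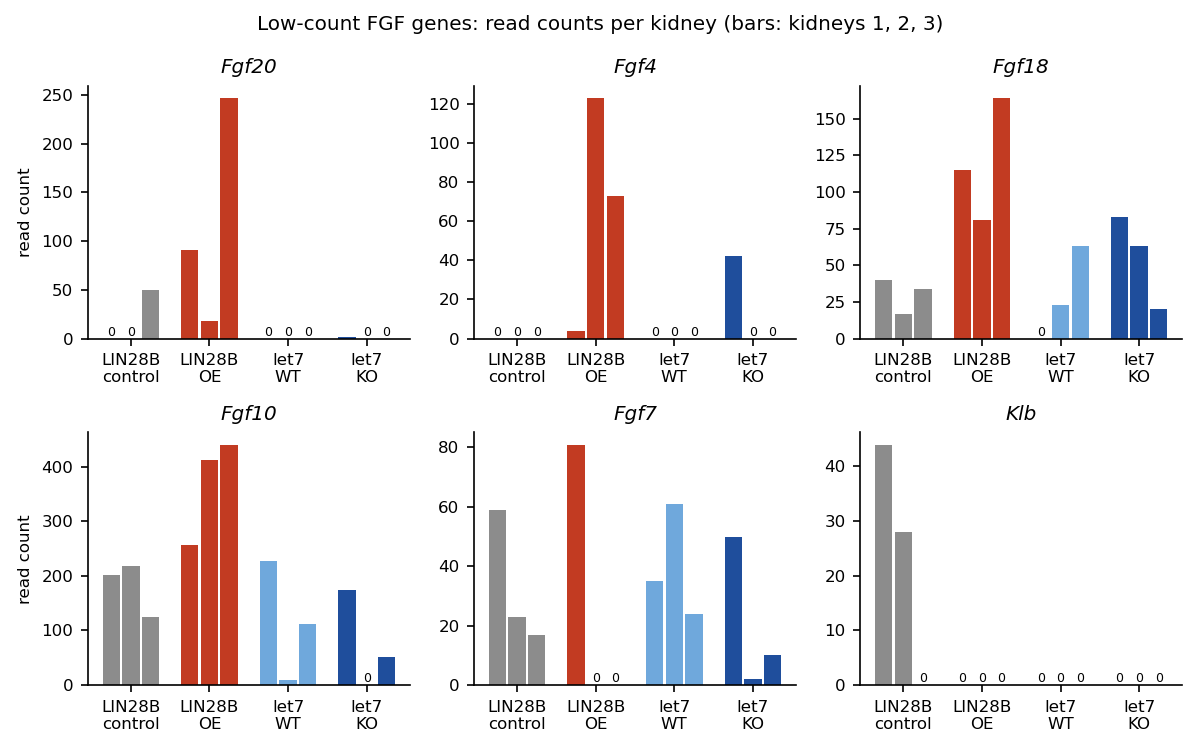
Reads per kidney of 6 members with low counts (Fgf20, Fgf4, Fgf18, Fgf10, Fgf7 and Klb), 1 bar per kidney in the 4 groups, with axes from 0. Fgf4 and Fgf18 reads are more numerous in LIN28B OE kidneys than in their controls, and Klb reads are found only in LIN28B controls 1 and 2.

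None of the receptors passed the edgeR test at p below 0.05 in either model. All 5 were tested, with log2 fold changes from -0.51 to 0.15 in the LIN28B model and from -0.48 to 0.10 in the let7 model. Fgfr1 (chr8:25513654-25575718), the main receptor of the mesenchyme, was at 135, 115 and 118 CPM in LIN28B controls and 127, 104 and 176 CPM in LIN28B OE kidneys. The third LIN28B OE kidney was the highest and the second the lowest of these 6 (log2 0.15, SE 0.19, edgeR adjusted p = 0.757). Fgfr1 in let7 WT kidneys was at 75.7, 73.6 and 91.2 CPM and in let7 KO kidneys at 76.6, 93.3 and 89.3 CPM (log2 0.10, SE 0.18, edgeR adjusted p = 0.880). Fgfr2 (chr7:130162451-133123350, minus strand), the receptor of the ureteric bud, was at 145, 135 and 122 CPM in LIN28B controls and 122, 118 and 149 CPM in LIN28B OE kidneys. Its ranges overlapped almost fully (log2 -0.04, SE 0.15, edgeR adjusted p = 0.927). In the let7 model Fgfr2 ran from 70.7 to 132 CPM in let7 WT and from 94.0 to 144 CPM in let7 KO kidneys (log2 0.07, SE 0.26, edgeR adjusted p = 0.952). Of the Fgfr2 exon bases, 3.04% overlap Ctbp2 on the same strand. All its exons add up to 10328 bases, against 4429 in the longest transcript. The direction of the Fgfr1 difference in the LIN28B model turned without LIN28B OE 3, and that of Fgfr2 also turned in each model when single kidneys were left out.

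Fgfrl1 (chr5:108692382-108706924), a receptor without a kinase that is required for the kidney to form, was at 34.7, 41.1 and 35.1 CPM in LIN28B controls and 32.5, 44.3 and 43.1 CPM in LIN28B OE kidneys (log2 0.11, SE 0.19, edgeR adjusted p = 0.814). Fgfrl1 in let7 WT kidneys was at 31.1, 42.2 and 32.5 CPM and in let7 KO kidneys at 30.6, 25.1 and 34.5 CPM (log2 -0.24, SE 0.24, edgeR adjusted p = 0.762). Both pairs of groups overlapped. Fgfr3, named here for its separate groups, was at 36.2, 29.5 and 35 CPM in let7 WT and 26.5, 20.7 and 25.5 CPM in let7 KO kidneys, with every let7 KO kidney lower (log2 -0.48, SE 0.23, edgeR adjusted p = 0.484). In the LIN28B model Fgfr3 was at 35.3, 36.4 and 19.7 CPM in controls and 25.4, 23.2 and 15.2 CPM in LIN28B OE kidneys. The groups overlapped because of the third control, although within each litter number the LIN28B OE kidneys were lower (log2 -0.51, SE 0.29, edgeR adjusted p = 0.393). With litter as a block the value was -0.49 (edgeR adjusted p = 0.245). Without both LIN28B controls that held fat markers the Fgfr3 difference turned to 0.12, with a single control kidney left. Of the Fgfr3 exon bases, 13.9% overlap a gene on the other strand.

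Kl (chr5:150952607-150993817) encodes klotho, which the kidney makes mainly in the distal tubule and which turns FGFR1 into the receptor for the phosphate hormone FGF23. Kl was at 236, 157 and 174 CPM in LIN28B controls and 110, 101 and 119 CPM in LIN28B OE kidneys. All 3 LIN28B OE kidneys lay below every control and close to each other, while control 1 stood high. The level was 189 ± 41.2 CPM (SD, n = 3) against 110 ± 9.09 CPM (SD, n = 3), which was 1.72-fold lower (log2 -0.78, SE 0.17, edgeR adjusted p = 0.0630). An exact two-sided permutation test over the kidneys gave p = 0.1, the smallest that 3 against 3 allows, as it did for every pair of groups that did not overlap. In let7 WT kidneys Kl was at 239, 200 and 247 CPM and in let7 KO kidneys at 224, 109 and 137 CPM. The first let7 KO kidney lay inside the let7 WT range and the other 2 lay far below it. The fitted let7 difference was 1.46-fold lower (log2 -0.55, SE 0.26, edgeR adjusted p = 0.471). Without let7 KO 1 it was -0.91 (edgeR adjusted p = 0.0748), and without the other 2 let7 KO kidneys, which leaves a single let7 KO kidney, it was -0.03. Those 2 kidneys were picked after seeing that they had the lowest slopes of expression on transcript length of the 12 (-0.0976 and -0.119 log2 units for each doubling of length), and with such a slope, computed over the 6 kidneys of this model, as a covariate the Kl difference was -0.23 (edgeR adjusted p = 0.823). The loop and distal tubule marker sums were also lower in the mutant kidneys with low Kl, though not in the same order. They were 832 to 1257 CPM in LIN28B controls against 394 to 527 CPM in LIN28B OE kidneys. In the let7 model they were lowest, at 732 and 964 CPM, in let7 KO kidneys 3 and 2. Of that list, Umod, Slc12a1 and Slc12a3 were lower in the let7 model (log2 -0.51, -0.48 and -0.59), while Kcnj1 (-0.04) and Pvalb (0.03) hardly moved. Other markers were lower in the same LIN28B OE kidneys, the proximal tubule sum at 837 to 997 CPM against 1740 to 1856 CPM and the endothelial sum at 478 to 537 CPM against 716 to 767 CPM. The proximal tubule sum was also lower in let7 KO kidneys, at 1777 to 2221 CPM against 2429 to 2859 CPM, while the endothelial sums overlapped there.

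The LIN28B Kl result also changed with the kidneys and tools used. Its adjusted p fell under 0.05 with DESeq2 (0.00143), with edgeR's exact test (0.00253) and without LIN28B OE 3 (0.0144), settings in which 8.03%, 6.59% and 12.8% of all genes passed. It was further from the threshold with litter as a block and in one fit of 12 kidneys (0.117 each), without control 1 (0.273) and without control 2 (0.174). Leaving out both controls that held fat markers gave a log2 fold change of -0.66, with a single control kidney left and the spread taken from the LIN28B OE kidneys alone. Klb, the co-receptor for FGF21 and FGF15, which fat and liver express, had 44 and 28 reads in LIN28B controls 1 and 2 and 0 in the other 10 kidneys. These were the 2 kidneys with 59.5 and 65.5 CPM of fat markers.

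**Figure D4:**
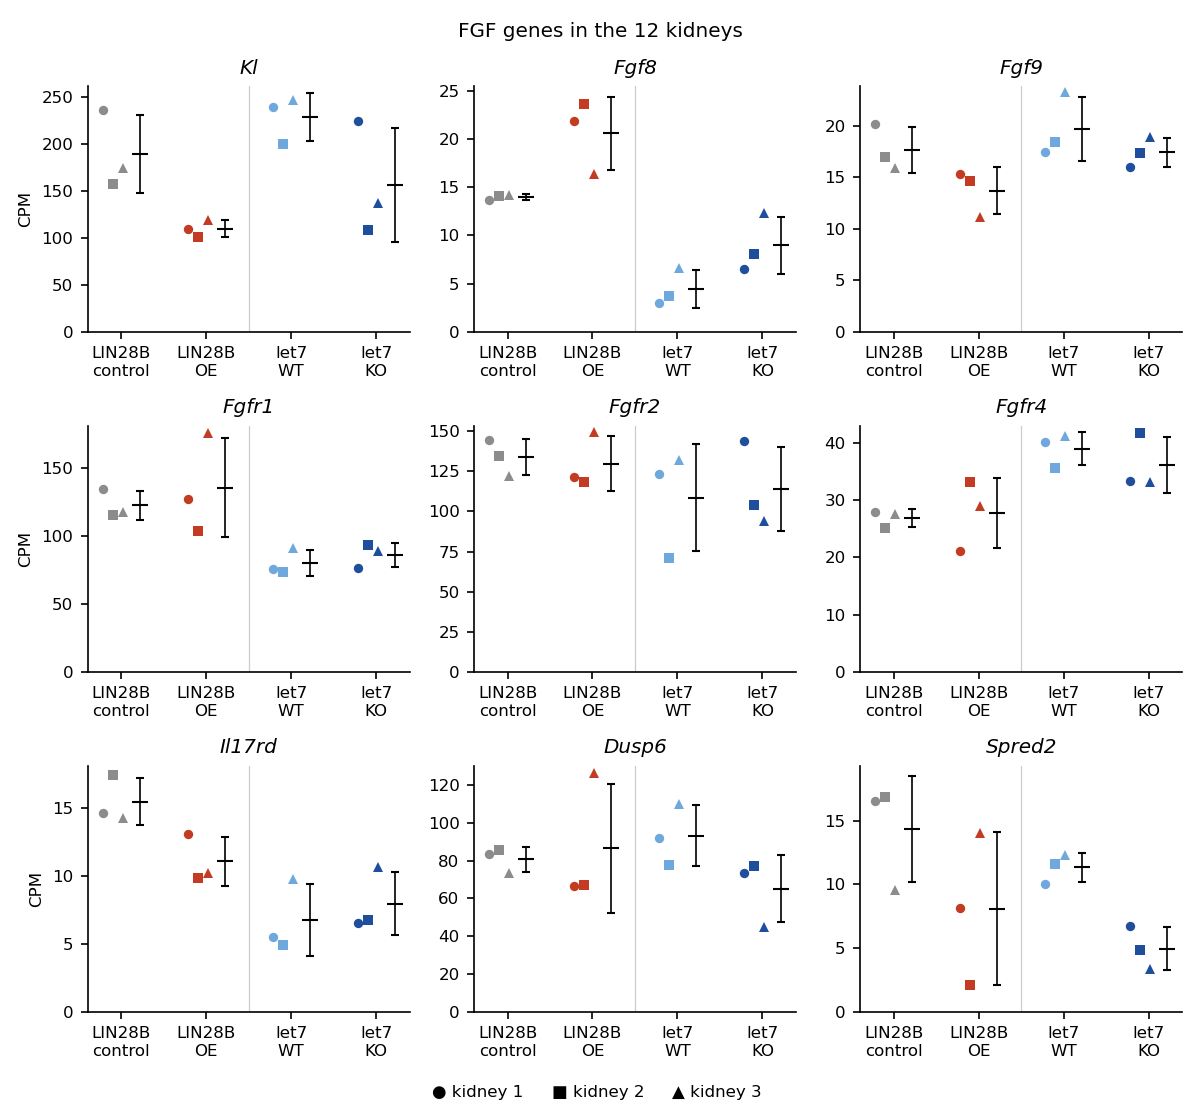
CPM in each kidney (points) with the mean and SD of 3 kidneys for Kl, Fgf8, Fgf9, Fgfr1, Fgfr2, Fgfr4, Il17rd, Dusp6 and Spred2 in the 4 groups, each axis from 0. Kl sits at 101 to 119 CPM in LIN28B OE kidneys against 157 to 236 CPM in their controls, and Fgf8 is low in both let7 groups.

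The feedback genes did not move together. Of 8 members, 7 were tested, and 4 lay above and 3 below 0 in the LIN28B model (median log2 0.09), against 2 above and 5 below in the let7 model (median log2 -0.30). Dusp6, which dephosphorylates ERK, was at 83.4, 85.6 and 73.3 CPM in LIN28B controls and 66.5, 67.1 and 126 CPM in LIN28B OE kidneys. The first and second LIN28B OE kidneys lay below the controls and the third far above them (log2 0.11, SE 0.25, edgeR adjusted p = 0.882), and without LIN28B OE 3 the difference was -0.27. In let7 WT kidneys Dusp6 was at 92.1, 77.7 and 110 CPM and in let7 KO kidneys at 73.5, 77.2 and 44.6 CPM. All let7 KO kidneys were lower, the nearest by less than 1 CPM (log2 -0.52, SE 0.24, edgeR adjusted p = 0.466).

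Spry2 (chr14:105891947-105896819, minus strand), which blocks signalling upstream of RAF, was at 6.80, 6.00 and 7.58 CPM in LIN28B controls and 8.59, 13.6 and 6.17 CPM in LIN28B OE kidneys (log2 0.48, SE 0.35, edgeR adjusted p = 0.531). Spry2 in let7 WT kidneys was at 4.40, 9.40 and 6.83 CPM and in let7 KO kidneys at 9.11, 9.38 and 11.1 CPM (log2 0.51, SE 0.39, edgeR adjusted p = 0.670). The groups overlapped in both models. Il17rd (chr14:27038941-27107286), whose product SEF holds activated ERK in the cytoplasm, was at 14.6, 17.4 and 14.3 CPM in LIN28B controls and 13.1, 9.87 and 10.2 CPM in LIN28B OE kidneys. Every LIN28B OE kidney lay below every control (log2 -0.48, SE 0.24, edgeR adjusted p = 0.344). In let7 WT kidneys Il17rd was at 5.48, 4.94 and 9.78 CPM and in let7 KO kidneys at 6.52, 6.73 and 10.6 CPM. Kidney 3, the one with the second litter number, was the highest in each let7 group. The let7 KO kidneys were higher within each litter number, while the groups overlapped (log2 0.24, SE 0.44, edgeR adjusted p = 0.886). Spred2, which keeps RAS from activating RAF and is named here for its p, was at 10.02, 11.6 and 12.3 CPM in let7 WT and 6.70, 4.84 and 3.33 CPM in let7 KO kidneys. The let7 KO kidneys lay below all 3 let7 WT kidneys, 2.29-fold lower in the fit (log2 -1.19, SE 0.40, edgeR adjusted p = 0.375). In the LIN28B model Spred2 was at 16.6, 16.9 and 9.51 CPM in controls and 8.11, 2.11 and 14.1 CPM in LIN28B OE kidneys, with overlap (log2 -0.82, SE 0.56, edgeR adjusted p = 0.499).

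Matches to the let-7 seed were searched in 1 UTR per gene, the longest one annotated, as CTACCTC (pairing with bases 2 to 8) or TACCTCA (bases 2 to 7 and an A), read on the transcript strand only, with CTACCTCA holding both. Of 27 members tested, 3 held either site (11.1%), against 18.0% of 14495 genes tested. CTACCTC was found in 2 of the 27 (7.41%, against 11.6% of genes) and CTACCTCA in 1 (3.70%, against 4.17%). Among all 38 members with a UTR, tested or not, 7 held either site (18.4%). A match describes the letters only. The members with a site were Fgf2, Fgf4, Fgf5, Fgf6, Fgf11, Frs2 and Spred3, and none of the receptors, Kl, Fgf8, Fgf9, Fgf20, Spry2 or Dusp6 was among them. The windows of the 2 members with the 8-base site and of the 2 others with a site that were tested are shown with the site in capitals, from GRCm38 in the direction of the transcript.
Fgf11, chr11:69796775-69796804, minus strand: tgaacacttagCTACCTCAgcaggaattcc
Fgf4, chr7:144863863-144863892, plus strand: tctatccccatCTACCTCAgagttcctgag
Frs2, chr10:117071096-117071125, minus strand: gcatataaaatgTACCTCActaaagttcta
Spred3, chr7:29159273-29159302, minus strand: ccattcttaacCTACCTCgttttgggaagg

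Of the 3 carriers of a site tested in the models, 0 passed the edgeR test at p below 0.05 in either. Frs2, the adaptor that docks GRB2 on the receptor, was at 33.6, 20.2 and 36 CPM in let7 WT and 24.4, 7.47 and 17.8 CPM in let7 KO kidneys (log2 -0.86, SE 0.41, edgeR adjusted p = 0.481). In the LIN28B model Frs2 was at 37.6, 29.6 and 23.4 CPM in controls and 12.9, 21.5 and 32 CPM in LIN28B OE kidneys (log2 -0.45, SE 0.32, edgeR adjusted p = 0.526). Its mutant means lay on the lower side in both models, with overlap in each. Spred3 was at 1.5, 2.05 and 1.57 CPM in LIN28B controls and 2.51, 2.97 and 2.91 CPM in LIN28B OE kidneys, all of them higher (log2 0.72, SE 0.55, edgeR adjusted p = 0.555), and at 1.27, 0.294 and 1.61 CPM in let7 WT and 0.0831, 0.791 and 0.908 CPM in let7 KO kidneys, with overlap. Fgf11, an FGF-homologous factor, ranged from 0.842 to 1.77 CPM in LIN28B controls and from 0.965 to 3.77 CPM in LIN28B OE kidneys, and from 1.47 to 2.97 CPM in let7 WT and 0.276 to 4.76 CPM in let7 KO kidneys. The let7 KO kidneys thus held both the lowest and the highest Fgf11 level of that model. Fgf4, the other carrier of the 8-base site, was described above.

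The control groups of the 2 models were compared to show how far FGF genes vary between control kidneys. These groups differ in strain, colony, litters, possible doxycycline exposure and library numbers, which cannot be told apart. Of 26 members tested, 3 passed an unadjusted p below 0.01 (Fgf8, Fgfr1 and Il17rd, all lower in let7 WT kidneys), against 4.79% of all genes, 4 passed p below 0.05, against 12.7%, and 0 passed the adjusted threshold, against 1.19%. The first of these counts fell to 1 (Fgf8) without LIN28B control 1 or without let7 WT 1, and the others lie near the share of all genes. Groups did not overlap for 5 of them (Fgf8, Fgf12, Fgfr1 and Il17rd lower, Fgfr4 higher), against 20.0% of all genes. Fgf8 at 2.95 to 6.66 CPM in let7 WT kidneys lay under the 13.6 to 14.2 CPM of LIN28B controls, 3.14-fold lower (log2 -1.65, SE 0.35, edgeR adjusted p = 0.0645). Fgfr1 was 1.53-fold lower (log2 -0.61, SE 0.14, edgeR adjusted p = 0.0905) and Il17rd 2.29-fold lower (log2 -1.20, SE 0.32, edgeR adjusted p = 0.132). Fgfr4, a receptor of tubules and liver named here for its p, went the other way, from 27.9, 25.1 and 27.5 CPM in LIN28B controls to 40.1, 35.7 and 41.1 CPM in let7 WT kidneys (log2 0.54, SE 0.17, edgeR adjusted p = 0.213). With DESeq2, or without let7 WT 3, Fgf8, Fgfr1 and Il17rd all passed the adjusted threshold, which 4.34% and 1.90% of all genes then passed. Proximal tubule markers summed to 1740 to 1856 CPM in LIN28B controls and 2429 to 2859 CPM in let7 WT kidneys, and progenitor markers to 65.8 to 83.1 CPM and 50.4 to 52.3 CPM.

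A difference between the responses of the 2 models was tested by the interaction term when all 12 kidneys were fitted together. Of 29 members, 0 passed an adjusted p below 0.05 (0.00602% of all genes did), 0 passed p below 0.01 (1.55% did) and 0 passed p below 0.05 (6.27% did), and DESeq2 also gave 0 at each of these. The median difference was 0.09 over the members and -0.02 over all genes. For Kl the LIN28B minus let7 difference was -0.25 (SE 0.32, edgeR adjusted p = 0.990), for Fgf8 -0.46 (SE 0.48, edgeR adjusted p = 0.980) and for Il17rd -0.73 (SE 0.47, edgeR adjusted p = 0.904). With these errors, differences of about that size between the models were not detectable, and the missed threshold does not show that the models act alike on these genes.

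Other genes of the pathway, 52 in all, were listed by their role in the RAS and ERK cascade, as genes that respond to ERK, or in heparan sulfate. The list was drawn up with earlier results of these data known, so its counts are not a test of the pathway. In LIN28B OE kidneys 51 were tested, 4 were higher and 3 lower at an unadjusted p below 0.01, a threshold 7.33% of all genes passed, and 3 rose past the adjusted threshold, which 1.23% of all genes passed. Dusp9, an ERK phosphatase, rose from 26.2, 21.3 and 18.3 CPM to 62.2, 63.4 and 72.4 CPM, 3.01-fold, with no overlap (log2 1.59, SE 0.19, edgeR adjusted p = 0.00648). Etv4, a transcription factor that FGF and RET signals induce, rose from 30.5, 31.9 and 35.9 CPM to 63.8, 58.4 and 81.8 CPM (log2 1.06, SE 0.18, edgeR adjusted p = 0.0291). Nras rose from 81.8, 85.6 and 80.9 CPM to 128, 136 and 131 CPM (log2 0.68, SE 0.13, edgeR adjusted p = 0.0399). Their levels were high in all 3 LIN28B OE kidneys, while the summed progenitor markers of the same kidneys were also high, as given above. Over 17 alternatives the log2 fold change ran from 1.49 to 1.86 for Dusp9, 0.90 to 1.17 for Etv4 and 0.67 to 0.71 for Nras. The adjusted p of these 3 genes did not stay below 0.05 under all alternatives, which include a fit with a single control kidney. The 4 others were heparan sulfate carriers, the syndecan Sdc1 higher (log2 0.47) and Sdc2 (-0.39), Sdc4 (-0.41) and the glypican Gpc4 (-0.53) lower, with adjusted p between 0.119 and 0.130. With litter as a block 4 pathway genes passed p below 0.01 instead of 7, in a fit where 5.72% of all genes passed. The 4 heparan sulfate carriers just named then had edgeR p between 0.0113 and 0.0147. Without both controls that held fat markers 1 of the list passed p below 0.01, in a fit with a single control kidney in which 0.878% of all genes passed that threshold.

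In let7 KO kidneys all 52 were tested and 2 were lower at an unadjusted p below 0.01, close to the 2.73% of all genes, and 0 passed the adjusted threshold by edgeR. Dusp4, a nuclear ERK phosphatase, was at 14, 10.7 and 15.8 CPM in let7 WT and 4.57, 1.84 and 2.56 CPM in let7 KO kidneys. All 3 let7 KO kidneys lay far below let7 WT, 4.51-fold lower (log2 -2.17, SE 0.45, edgeR adjusted p = 0.275). Hs6st1, which sulfates heparan sulfate, had a log2 fold change of -0.61 (SE 0.17, edgeR adjusted p = 0.362). The adjusted p of Dusp4 was 0.00734 with edgeR's exact test, and that of Hs6st1 was 0.0474 with DESeq2. The difference between the models was past p below 0.01 for Dusp9 (log2 1.63, edgeR adjusted p = 0.193), Dusp4 (log2 2.45, edgeR adjusted p = 0.313) and Sdc4 (log2 -0.97, edgeR adjusted p = 0.558), and past the adjusted threshold for none of the 52. The median over the list was 0.00 in the LIN28B and -0.16 in the let7 model, but the roles differed. For genes that respond to ERK it was 0.24 in the LIN28B model, -0.55 in the let7 model and 0.63 in the interaction. For the RAS and ERK cascade the medians were 0.04, -0.13 and 0.15, and for heparan sulfate -0.23, -0.13 and -0.12.

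**Figure D5:**
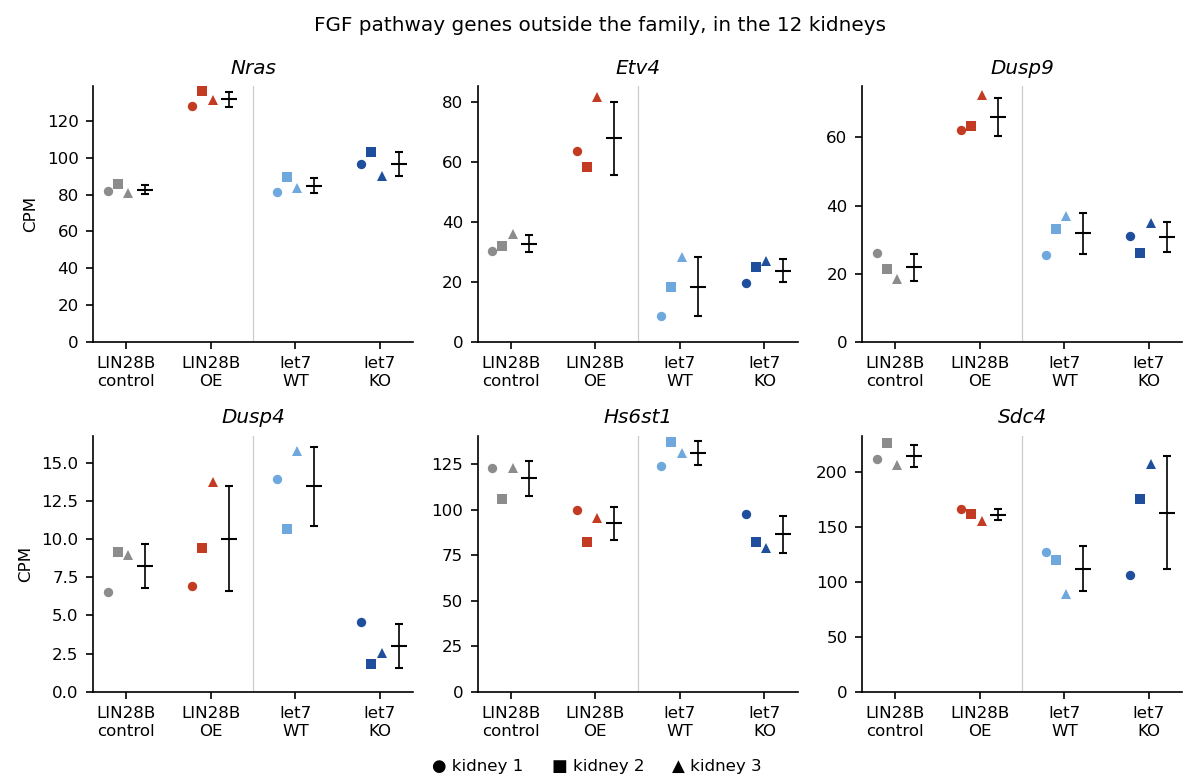
CPM in each kidney (points) with the mean and SD of 3 kidneys for Nras, Etv4, Dusp9, Dusp4, Hs6st1 and Sdc4, pathway genes outside the FGF set, in the 4 groups. Nras, Etv4 and Dusp9 lie higher in every LIN28B OE kidney than in any LIN28B control, and Dusp4 lies lower in every let7 KO kidney than in any let7 WT kidney.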

How the data were processed

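The authors sequenced whole kidney RNA (SMARTer Ultra Low kit, Illumina HiSeq) and deposited raw read counts for gene symbols, in 1 file for each kidney. The submitters' processing notes name cutadapt, TopHat2 2.0.9, Bowtie2, SAMtools 0.1.19 and HTSeq on mm10. The annotation, the strand setting and the treatment of shared reads were not given in the sources used here. Groups and litters came from the sample labels, and no kidney was left out. All 24062 symbols entered edgeR 4.0.16 (R 4.3.3; filterByExpr defaults with minimum count 10 and minimum total count 15, TMM, quasi-likelihood test, Benjamini-Hochberg), each model alone. Standard errors are the log2 fold change over the root of F. Kidneys of a group differed beyond counting noise (chi-square per gene at least 31.6), but p-values measure only the spread between kidneys, some of them littermates. Members and lists were chosen with earlier results of these data known. Full values were given for members at p below 0.01 in a comparison and for Fgf1, Fgf7, Fgf8, Fgf9, Fgf10, Fgf20, Fgfr1, Fgfr2, Fgfrl1, Kl, Dusp6 and Spry2. Positions and UTRs came from GENCODE M21 (22708 symbols matched, 38 of 39 members). Litter numbers are in the labels. Deviations from group means correlated on average at -0.11 within and 0.13 across litter numbers in the LIN28B model, and at -0.03 and 0.04 in the let7 model. Alternatives were DESeq2 1.42.0, edgeR's exact test, other normalizations, no filter and a strict filter, a litter block, one fit of 12 kidneys, Y-linked and transcript-length covariates, an 8-base site and each kidney left out. The fits were tested on simulated counts.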

Additional observations from a re-analysis of the deposited data

How the results depend on the processing

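The count of FGF members past the adjusted threshold in the LIN28B model was 0 (1.23% of all genes passed). It became 1 (Kl) with DESeq2 (8.03% of all genes), edgeR's exact test (6.59%), the strict filter (3.14%) and the transcript-length covariate (8.66%). As single kidneys were left out it ran from 0 to 1 (1 without LIN28B OE 3, where 12.8% passed). At p below 0.01 the count was 1 (7.33% of all genes) and became 2 with no filter (Fgf4 added, 6.58%). Leaving out both controls that held fat markers was chosen after seeing the data and leaves 1 control, so its count is not given here. The count ran from 1 to 3 as single kidneys were left out. It was 3 without LIN28B control 3 (5.50%) or LIN28B OE 1 (5.12%), and 2 without LIN28B OE 3 (15.4%). In the let7 model the count at p below 0.01 was 0 (2.73% of all genes) and became 1 (Spred2) with DESeq2 (5.46%) and the exact test (4.41%). It ran from 0 to 2 as single kidneys were left out (Kl and Spred2 without let7 KO 1, 8.12%). Between the controls the adjusted count was 0 (1.19% of all genes) and became 3 with DESeq2 (4.34%). It ran from 0 to 3 as single kidneys were left out (3 without let7 WT 3, 1.90%). The count at p below 0.01, where 4.79% of all genes passed in the main fit, ran from 1 to 4. It was 1 without LIN28B control 1 (2.94%) or let7 WT 1 (3.07%), and 4 without LIN28B control 3 (3.35%) or let7 WT 2 (5.69%). Litter as a block left the member counts at 0 (0.602% of all genes) and 1 (5.72%) in the LIN28B model. They stayed at 0 in the let7 model and the interaction, where 1.86% and 1.25% of all genes passed p below 0.01. At p below 0.05 the LIN28B count moved from 3 to 4 (all genes from 18.0% to 16.6%). The let7 count moved from 1 to 2 (all genes from 10.8% to 9.53%). Pathway genes at p below 0.01 in the LIN28B model went from 7 (7.33% of all genes) to 4 with the litter block (5.72%) and 11 with the length covariate (12.1%). They ran from 3 (without any single kidney but LIN28B OE 3, 3.17% to 5.50% of all genes) to 13 (without that kidney, 15.4%). In the let7 model they were 2 (2.73% of all genes) and ran from 1 to 14 as single kidneys were left out (14 without let7 KO 1, 8.12%). In the interaction they went from 3 (1.55%) to 6 with DESeq2 (2.51%), with a range of 2 to 5 (5 without let7 KO 1, 2.71%). Kl in the LIN28B model stayed between -0.90 and -0.59 over 17 alternatives, with adjusted p from 0.00143 to 0.9998. Signs turned for small differences and for Fgfr3 in the LIN28B model, which was at -0.51 in the main fit. Without let7 KO 2 and 3 the let7 values were -0.067 for Fgfr1 and -0.047 for Il17rd. Fgf1 in the let7 model was 0.0011 with DESeq2, 0.0012 with its size factors and 0.0098 with upper quartiles. Fgfr2 in the LIN28B model was 0.017 with the length covariate and 0.097 without both fat-marker controls, where Fgfr3 was 0.12. As single kidneys were left out, the LIN28B values ran from -0.085 to 0.32 for Fgfr1, from -0.16 to 0.037 for Fgfr2 and from -0.27 to 0.27 for Dusp6. The let7 values ran from -0.024 to 0.60 for Il17rd, from -0.18 to 0.11 for Fgf1 and from -0.16 to 0.23 for Fgfr2, and the Kl interaction from -0.45 to 0.095 (without let7 KO 1). In the let7 model the values over 17 alternatives ran from -1.26 to -0.30 for Frs2 and from -0.66 to -0.21 for Dusp6. They ran from -1.48 to -0.76 for Spred2 and from -2.63 to -1.56 for Dusp4. The length covariate and the fit without let7 KO 2 and 3 are among these alternatives. The slope on length was -0.0331, -0.0341 and 0.0889 in LIN28B OE kidneys 1 to 3. In their controls it was 0.0877, 0.0562 and -0.000583. The causes were not tested. Of 769 values of single genes under alternatives, 691 kept their direction and side of the threshold, 51 lost and 7 gained it and 20 turned. Depth limits Fgf20, Fgf4, Fgf7 and Klb, where single kidneys decide the totals, and Fgf18, whose reads are also few.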
